A study of Homo sapiens with 40 samples.

Results

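The genes described here encode the proteins of the mitochondrial ribosome. They were taken as the genes with values in the authors' deposited table whose symbol begins with MRPL or MRPS and goes on with a number and at most one letter from A to C, which gives 78 of 19280 genes. All 78 had values in every line, so no filter on low values removed any of them in any line. Mitochondria carry their own ribosome, which is made of a large and a small subunit. It translates the few messages of the mitochondrial genome, all of which code for subunits of the respiratory chain and the ATP synthase. Its ribosomal RNAs come from the mitochondrial genome, while its proteins are encoded in the nucleus, made in the cytosol and imported. Some of these proteins descend from bacterial ribosomal proteins and others belong to mitochondria alone. By structural role, 51 of the genes encode large subunit proteins (MRPS18A and MRPS30 among them, despite their symbols) and 26 encode small subunit proteins. The remaining one, MRPS36, is now known as an adaptor of the oxoglutarate dehydrogenase complex and not as a ribosomal protein.

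The data come from 40 RNA-seq libraries made from 10 established human cell lines of non-small cell lung cancer. Cells received GSK3368712 (GSK712 in the labels), an inhibitor of the type I protein arginine methyltransferases, or dimethyl sulfoxide (DMSO), its vehicle, with 2 libraries per arm of a line. The row labels place EBC1, LK2, NCIH226, NCIH520, SKMES1 and SW900 in lung squamous cell carcinoma (LUSC) and NCIH1563, NCIH1975, NCIH522 and PC9 in lung adenocarcinoma (LUAD). All 40 sample titles end in D5 and the row labels of the table hold a further number, and neither is spelled out. Per line, the authors' deposited table gives a log2 fold change for each gene, with its standard error and adjusted p. Positive fold changes are taken to mean more RNA with GSK3368712, since the row labels name that compound before DMSO, and the values hold no check of this direction. Nothing in the labels tells whether separate cultures gave both libraries of an arm, so the authors' p-values may measure technical spread only. Values are relative to all RNA of a culture, so fewer expressing cells and less RNA per cell cannot be told apart.

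The keratin genes KRT8, KRT18 and KRT19, which mark epithelial cells, had values in all 10 lines, EPCAM in 8 and CDH1 in 7. The squamous markers TP63, KRT5, KRT6A and SOX2 had values in lines of both labelled subtypes. TP63 had values in 2 of the 6 LUSC and 2 of the 4 LUAD lines, KRT5 in 2 and 1, KRT6A in 1 and 1, SOX2 in 4 and 1, and DSG3 in no line. The glandular lung markers NKX2-1, NAPSA and MUC1 also had values in lines of both subtypes, and SFTPB did not. NKX2-1 had values in 3 LUSC lines and 1 LUAD line, NAPSA in 2 and 1, SFTPB in 1 and 0, and MUC1 in all 10 lines, where it rose with a mean of 0.99 ± 0.85 (SD, n = 10 lines, limma adjusted p = 0.00774). Of the markers of other cell types, PTPRC and CD3E (leukocytes) had values in no line and PECAM1 (endothelium) in NCIH1563 alone. COL1A1 (fibroblasts) had values in all 10 lines with a mean of 0.54 ± 0.91 (SD, n = 10 lines, limma adjusted p = 0.125). The part of these markers in the results was not tested.

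Across the lines, more of these genes were lower with GSK3368712 than higher. With 1 fold change per line and limma's moderated test over the 9339 genes listed in all 10 lines, 22 of the 78 genes fell (28.2%), against 12.1% of all genes tested. MRPL48 and MRPS35 rose (2.56%), against 9.5% of all genes tested. The other 54 missed the adjusted p threshold of 0.05. In simulated data with the spread of all genes tested, this test recovered 9% of log2 changes of 0.25 and 76% of changes of 0.5. The 78 genes had a smaller spread than all genes tested (median SD over lines 0.191, against 0.291), so recovery among them may differ. Small changes among the 54 may still have been missed. At an unadjusted p under 0.05 the count was 31 (39.7%, against 34.6% of all genes tested). Without NCIH1975, NCIH522 and PC9, the lines with the widest errors, 13 fell (16.7%, against 9.75% of all genes) and 1 rose (1.28%, against 6.95%). The one that rose then was MRPL10, and neither MRPL48 nor MRPS35 passed. A random-effects meta-analysis with the authors' standard errors called 34 lower (43.6%, against 22% of all genes) and 7 higher (8.97%, against 18.2%). In the 4 LUAD lines alone none of the 78 passed, and of all genes 0.0321% were lower and 0.0107% higher. Leaving out NCIH520 ended the call of MRPS35, so that 1 gene rose. The changes were small: the means ran from −0.64 for MRPL35 (36.0% less RNA) to 0.25 for MRPL48 (19.0% more) on the log2 scale. The median of the 78 means was −0.07, against 0.00 for all genes tested. The fold change was negative in 10 of 10 lines for 15 of the genes (19.2%, against 5.43% of all genes tested), and positive in 10 of 10 for 2 of them (4.39% of all genes tested).

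**Figure D1:**
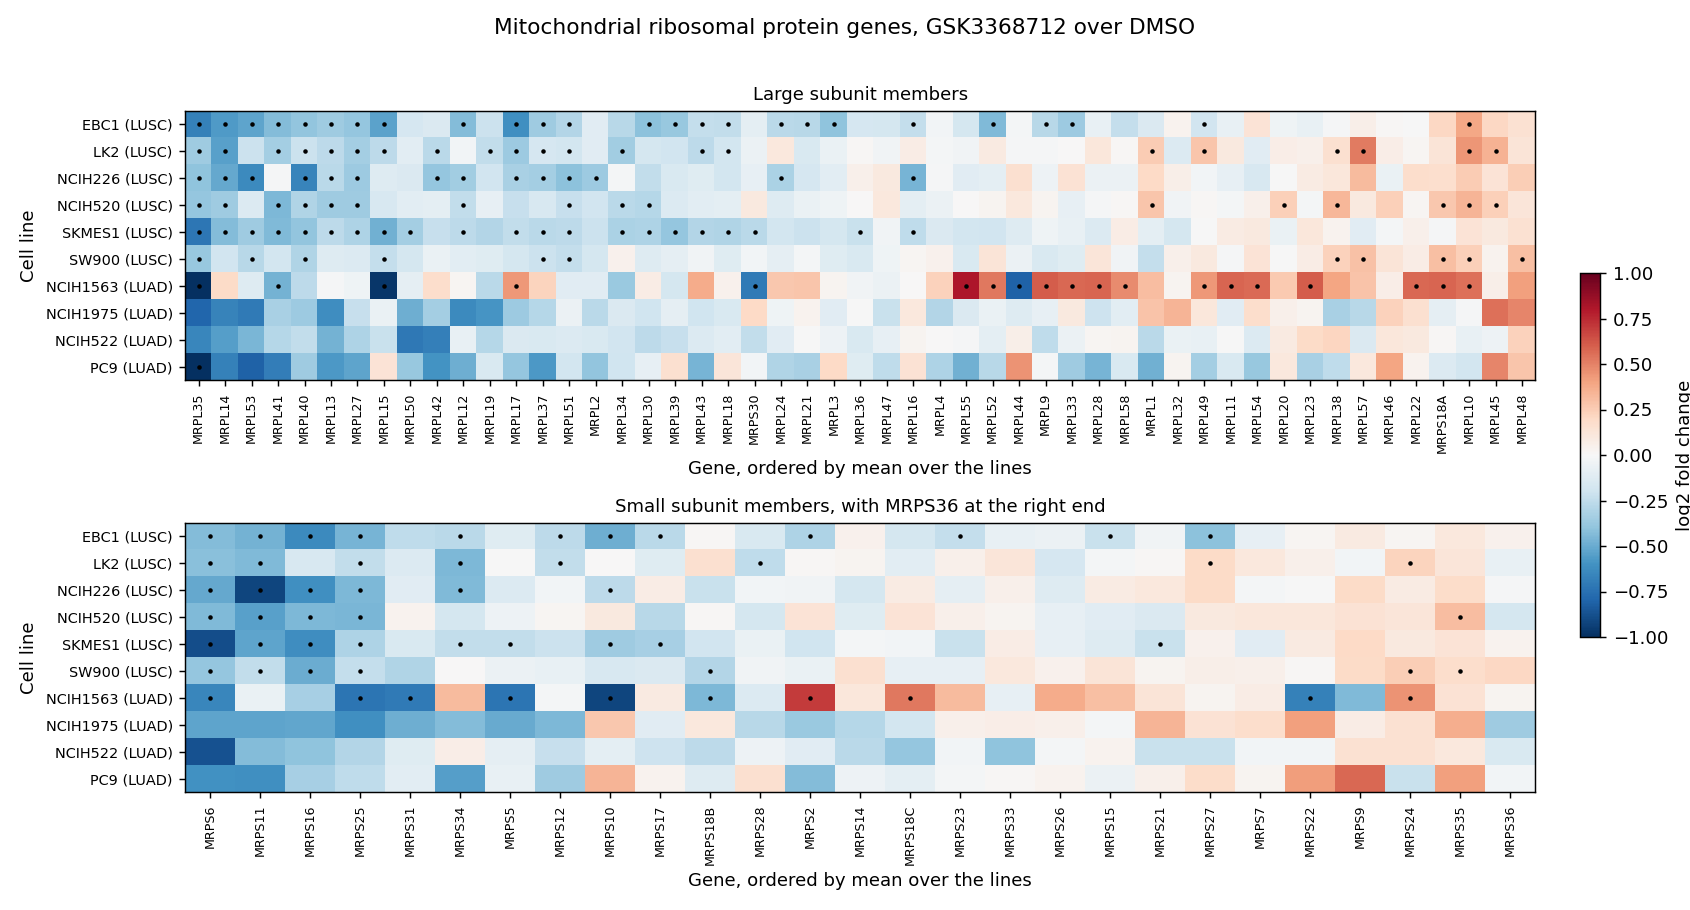
Log2 fold change, GSK3368712 over DMSO, of each of the 78 genes (columns, ordered by their mean over the lines) in each of the 10 cell lines (rows). Blue is lower and red higher with GSK3368712, the colour scale ends at −1 and 1, and a dot marks an adjusted p of at most 0.05 in the authors' deposited table. The columns at the left are blue in nearly all lines, and NCIH1563 holds most of the strong red.

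Among the 30 large subunit proteins of bacterial descent, 10 fell (33.3%, against 12.1% of all genes tested) and none rose (against 9.5%). The median of their means was −0.08. MRPL35, the counterpart of the bacterial large subunit protein of the same number, lies at chr2:86199355-86213794 (GRCh38, plus strand). In the authors' deposited table its log2 fold change was −1.06 in NCIH1563 at the lowest, −0.66 at the median and −0.36 in LK2 at the highest. Every line was below zero, and the 4 LUAD lines were all lower than 4 of the 6 LUSC lines. MRPL35 averaged −0.64 ± 0.26 (SD, n = 10 lines), with a limma adjusted p of 0.00025. It passed the authors' adjusted p in 8 of the 10 lines, more than any other of the 78 genes.

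MRPL14, which sits on the face of the large subunit that meets the small one, ranged from −0.68 in PC9 through a median of −0.53 to 0.19 in NCIH1563 in the authors' deposited table. All lines but NCIH1563 were below zero. MRPL14 averaged −0.43 ± 0.26 (SD, n = 10 lines, limma adjusted p = 0.00331). MRPL27, whose bacterial counterpart reaches into the peptidyl transferase centre, ranged from −0.52 in PC9 through −0.32 to −0.05 in NCIH1563 in the authors' deposited table, with a mean of −0.30 ± 0.14 (SD, n = 10 lines, limma adjusted p = 0.00411). MRPL13 ranged from −0.62 in NCIH1975 through −0.31 to −0.01 in NCIH1563 in the authors' deposited table, with a mean of −0.33 ± 0.19 (SD, n = 10 lines, limma adjusted p = 0.0051). With correction for GC content and transcript length the limma adjusted p of MRPL13 was 0.0565. Both genes were below zero in every line, and for both NCIH1563 lay nearest to zero.

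The other bacterial-type large subunit genes that fell had means between −0.20 and −0.29. They were MRPL15, MRPL12, MRPL19, MRPL2, MRPL34 and MRPL30. MRPL12 encodes the stalk protein to which translation factors bind and which also binds the mitochondrial RNA polymerase. Its mean was −0.26 ± 0.22 (SD, n = 10 lines, limma adjusted p = 0.0249), and it was lower in 9 lines. MRPL2, part of the peptidyl transferase centre, was lower in 10 of 10 lines with a mean of −0.21 ± 0.10 (SD, n = 10 lines, limma adjusted p = 0.0185). Without NCIH1975, NCIH522 and PC9 the calls of MRPL2, MRPL12, MRPL19, MRPL30 and MRPL34 ended, at limma adjusted p between 0.0538 and 0.101. Leaving out a single line ended the call of 4 of these genes. The limma adjusted p reached 0.058 for MRPL12 (without EBC1, NCIH226, SKMES1 or NCIH1975) and 0.0681 for MRPL34 (without EBC1, LK2, NCIH520 or SKMES1). It reached 0.0866 for MRPL15 and 0.0731 for MRPL30, without NCIH522 or any one of the LUSC lines. With correction for GC content and transcript length the calls of MRPL15, MRPL30 and MRPL34 ended, at limma adjusted p between 0.053 and 0.0778. That of MRPL15 also ended with an ordinary one-sample test, and that of MRPL34 in the LUSC lines alone.

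Of the 21 large subunit proteins particular to mitochondria, 7 fell (33.3%, against 12.1% of all genes tested) and 1 rose (4.76%, against 9.5%). MRPL40, a gene of the region deleted in DiGeorge syndrome (chr22:19431902-19436075, GRCh38, plus strand), ranged from −0.66 in NCIH226 through −0.33 to −0.22 in LK2 in the authors' deposited table. All 10 lines were below zero, and NCIH226 lay apart from the other 9. MRPL40 averaged −0.35 ± 0.13 (SD, n = 10 lines, limma adjusted p = 0.00146). MRPL53 ranged from −0.81 in PC9 through −0.41 to −0.13 in NCIH1563 in the authors' deposited table, with a mean of −0.43 ± 0.24 (SD, n = 10 lines, limma adjusted p = 0.00253). MRPL41 ranged from −0.69 in PC9 through −0.39 to −0.01 in NCIH226 in the authors' deposited table, with a mean of −0.36 ± 0.18 (SD, n = 10 lines, limma adjusted p = 0.00272). Neither gene was above zero in any line. MRPL51, MRPL50, MRPL42 and MRPL37 had smaller means, between −0.21 and −0.27. The call of MRPL50 ended without NCIH1975, NCIH522 and PC9 (limma adjusted p = 0.115) and with the correction for GC content and length (0.0977). MRPL51 was lower in 10 of 10 lines, and the authors' adjusted p called it lower in all 6 LUSC lines. The call of MRPL37 ended without any one line but NCIH1563 (limma adjusted p up to 0.0814). That of MRPL42 ended without any one line but NCIH520, SW900 and NCIH1563 (limma adjusted p up to 0.0811). Without NCIH1975, NCIH522 and PC9 both calls ended (limma adjusted p = 0.153 for MRPL37 and 0.229 for MRPL42). With the correction for GC content and length that of MRPL42 ended (limma adjusted p = 0.156), as it did with an ordinary one-sample test.

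MRPL48, a protein of the central protuberance (chr11:73787316-73865133, GRCh38, plus strand), went the other way. In the authors' deposited table its log2 fold change was 0.12 in NCIH520 at the lowest, 0.24 at the median and 0.49 in NCIH1975 at the highest. It was above zero in all 10 lines, with a mean of 0.25 ± 0.12 (SD, n = 10 lines, limma adjusted p = 0.00935). Within single lines it passed the authors' adjusted p only in SW900, at 0.0159. Without NCIH1975, NCIH522 and PC9 its limma adjusted p was 0.0534. MRPL45, which anchors the ribosome at the inner membrane, lay just outside the threshold with a mean of 0.21 ± 0.20 (SD, n = 10 lines, limma adjusted p = 0.0512).

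**Figure D2:**
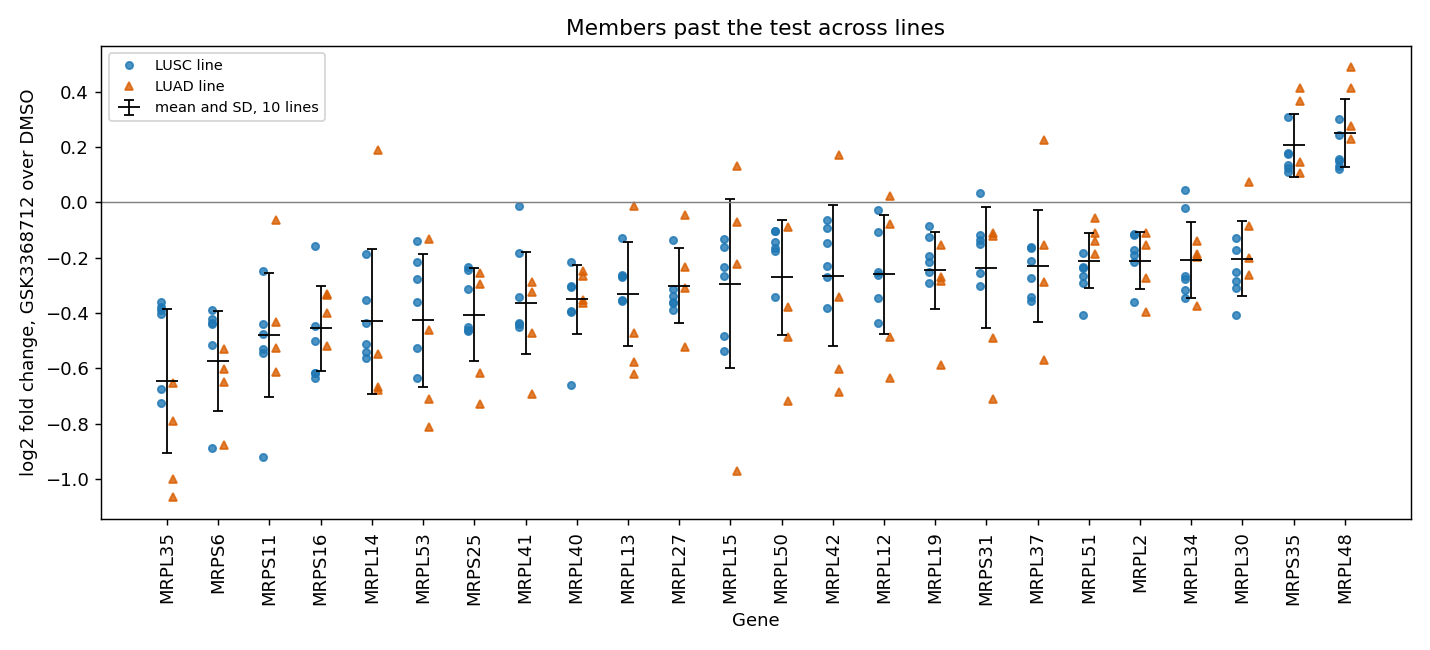
Log2 fold change, GSK3368712 over DMSO, in each of the 10 lines for the 24 genes past limma's test across lines, ordered by mean. Circles are LUSC lines, triangles LUAD lines, and the bar is the mean with its SD over 10 lines. MRPL35 has the lowest mean at −0.64, and MRPS35 and MRPL48 lie above zero in all 10 lines.

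Among the 17 small subunit proteins of bacterial descent, 3 fell (17.6%, against 12.1% of all genes tested) and none rose (against 9.5%). These were MRPS6, MRPS16 and MRPS11, the counterparts of proteins that in bacteria lie in the platform and body of the small subunit. MRPS6 (chr21:34073224-34143034, GRCh38, plus strand) ranged from −0.89 in SKMES1 through −0.52 to −0.39 in SW900 in the authors' deposited table. All lines were below zero, with SKMES1 and NCIH522 lowest. Its mean of −0.57 ± 0.18 (SD, n = 10 lines) had the smallest limma adjusted p of the 78 genes, 0.000154, and the authors' adjusted p called it lower in 7 lines. SLC5A3, an inositol transporter gene that lies within MRPS6 on the same strand in GENCODE 29, had a mean of 0.30 over the 9 lines with values.

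MRPS16 (chr10:73248843-73252693, GRCh38, minus strand) ranged from −0.63 in EBC1 through −0.47 to −0.16 in LK2 in the authors' deposited table. It was below zero in all 10 lines with a mean of −0.46 ± 0.15 (SD, n = 10 lines, limma adjusted p = 0.000399). MRPS11 (chr15:88467453-88480773, GRCh38, plus strand), whose bacterial counterpart lines the path of the messenger RNA, ranged from −0.92 in NCIH226 through −0.50 to −0.06 in NCIH1563 in the authors' deposited table. NCIH226 was the lowest by a wide margin and NCIH1563 the only line near zero. MRPS11 averaged −0.48 ± 0.22 (SD, n = 10 lines, limma adjusted p = 0.000957).

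MRPS11 and MRPL46 start 34 bases apart on opposite strands in GENCODE 29. While MRPS11 fell, MRPL46, a large subunit protein, had a mean of 0.12 ± 0.14 (SD, n = 10 lines, limma adjusted p = 0.194) and was lower in 2 of 10 lines. In all, 27 of the 78 genes have a protein-coding neighbour with values that starts within 1000 bases on the opposite strand. Of the 6 genes that fell and have such a neighbour tested in all lines, none had a neighbour that passed limma's test in either direction. Among all genes tested, 12.1% were lower and 9.5% higher, and 6 neighbours are too few to set against those shares. Nearest to the threshold among the 6 was EME1, the neighbour of MRPL27. Its mean was −0.32 ± 0.39 (SD, n = 10 lines, limma adjusted p = 0.0614), and it was lower in 9 lines. MRPL43 did not pass (mean −0.15 ± 0.22, SD, n = 10 lines, limma adjusted p = 0.181), while its neighbour TWNK, the helicase of mitochondrial DNA, rose by 0.46 ± 0.27 (SD, n = 10 lines, limma adjusted p = 0.00243).

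Of the 9 small subunit proteins particular to mitochondria, 2 fell (22.2%, against 12.1% of all genes tested) and 1 rose (11.1%, against 9.5%). MRPS25 (chr3:15042460-15065335, GRCh38, minus strand) ranged from −0.73 in NCIH1563 through −0.38 to −0.24 in SW900 in the authors' deposited table, below zero in every line. Its mean was −0.41 ± 0.17 (SD, n = 10 lines, limma adjusted p = 0.00113). MRPS31 had a mean of −0.24 ± 0.22 (SD, n = 10 lines, limma adjusted p = 0.0397), the nearest to the threshold of those that passed. Leaving out any one line but NCIH520, NCIH1563 and PC9 ended its call (limma adjusted p up to 0.0843). The call of MRPS31 also ended without NCIH1975, NCIH522 and PC9 (limma adjusted p = 0.106) and with the correction for GC content and length (0.083). In the LUSC lines alone and with a robust and trended variance model it ended as well. MRPS35, a protein of the small subunit head, was higher in 10 of 10 lines and averaged 0.21 ± 0.11 (SD, n = 10 lines, limma adjusted p = 0.0222). Its limma adjusted p was 0.0542 without NCIH520, and 0.0922 without NCIH1975, NCIH522 and PC9.

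The upstream sequences of 5 changed small subunit genes are shown because these genes moved across the lines and have stretches before their start that lie outside exons of coding genes. They are taken from RefSeq (GRCh38.p14), 5′ to 3′ on the gene's strand, with capitals for any match to the motifs described next. The stretches run from 250 bases before the RefSeq start to the first base that GENCODE 29 places in such an exon. GENCODE 29 starts MRPS6 further upstream than RefSeq, so by its coordinates the MRPS6 stretch lies in an intron of the gene.
MRPS6, chr21:34073328-34073522, plus strand: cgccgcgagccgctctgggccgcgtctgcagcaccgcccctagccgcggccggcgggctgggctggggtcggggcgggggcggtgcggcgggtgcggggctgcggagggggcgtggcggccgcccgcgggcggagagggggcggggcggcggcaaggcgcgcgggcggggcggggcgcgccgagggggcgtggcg
MRPS16, chr10:73252694-73252894, minus strand: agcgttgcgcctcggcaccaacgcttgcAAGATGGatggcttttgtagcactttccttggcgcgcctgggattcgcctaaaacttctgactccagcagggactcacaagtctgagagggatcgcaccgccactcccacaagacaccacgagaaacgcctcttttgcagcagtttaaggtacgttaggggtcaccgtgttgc
MRPS25, chr3:15065336-15065565, minus strand: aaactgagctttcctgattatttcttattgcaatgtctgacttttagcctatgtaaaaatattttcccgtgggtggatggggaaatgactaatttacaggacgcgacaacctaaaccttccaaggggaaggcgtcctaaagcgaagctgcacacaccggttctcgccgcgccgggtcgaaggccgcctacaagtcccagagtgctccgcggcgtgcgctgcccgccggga
MRPS31, chr13:40771191-40771440, minus strand: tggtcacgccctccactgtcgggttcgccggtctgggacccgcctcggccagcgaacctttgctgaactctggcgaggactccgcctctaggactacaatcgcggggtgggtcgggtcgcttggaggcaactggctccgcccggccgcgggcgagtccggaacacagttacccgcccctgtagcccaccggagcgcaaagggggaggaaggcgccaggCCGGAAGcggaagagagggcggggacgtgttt
MRPS35, chr12:27710582-27710772, plus strand: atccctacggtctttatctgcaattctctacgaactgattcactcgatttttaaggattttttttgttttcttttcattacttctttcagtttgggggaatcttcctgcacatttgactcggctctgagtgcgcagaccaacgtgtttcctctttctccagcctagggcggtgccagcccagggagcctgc

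In all, 3 motifs of factors known to act at promoters of mitochondrial protein genes were searched on both strands in the 250 bases before the RefSeq start, with overlapping matches allowed. A RefSeq promoter was matched for 69 of the 78 genes. The ETS family motif CCGGAAG, the letters bound by the GA-binding protein, was present in 23 of the 69 (33.3%), against 8.52% of all 35116 promoters and 19.7% of the 7245 promoters of genes tested across lines. This motif was present in 33.3% of the 18 promoters of genes that fell and in 32.7% of the 49 promoters of genes that passed in neither direction. The capitals in MRPS31 mark it 32 bases before the start. The YY1 motif AAGATGG was present in 10.1%, against 3.70% of all promoters and 3.71% of those of genes tested, and the capitals in MRPS16 mark it 222 bases before the start. The NRF1 motif (GCGCA, any base, GCGC) was present in 11.6%, against 5.07% and 12.7%. These matches describe the letters in these windows only.

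The remaining 54 genes passed in neither direction. Among the genes with a mean within 0.05 of zero, the smallest SD over lines belonged to MRPS7, with a mean of 0.03 ± 0.09, MRPL32 with 0.01 ± 0.14, MRPS15 with 0.00 ± 0.15 and MRPS26 with 0.00 ± 0.15 (SD, n = 10 lines each). MRPS36, which is not a ribosomal protein, had a mean of −0.05 ± 0.15 (SD, n = 10 lines, limma adjusted p = 0.641) and passed the authors' adjusted p in no line.

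The comparison within each line asked which of the genes differed between GSK3368712 and DMSO there, by the authors' DESeq2 adjusted p of at most 0.05. Of the 780 pairs of gene and line, 145 were lower and 40 higher. These totals pool lines with different shares of called genes, so the share among all genes listed is set beside each line's counts. In the authors' deposited table, EBC1 had 36 of the 78 genes lower (46.2%, against 23.4% of all genes listed) and 1 higher (1.28%, against 23%). SKMES1 had 30 lower (38.5%, against 15.6%) and none higher (against 15.8%) in the authors' deposited table. NCIH226 had 20 lower (25.6%, against 15.8%) and none higher (against 15.5%) in the authors' deposited table. These 3 lines thus had nearly all of their called genes on the lower side.

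LK2 had 21 lower (26.9%, against 19.5%) and 8 higher (10.3%, against 19.9%) in the authors' deposited table. NCIH520 had 14 lower (17.9%, against 12.3%) and 7 higher (8.97%, against 11.4%) in the authors' deposited table. In SW900 the authors' deposited table gave 11 lower (14.1%, against 17.7%) and 7 higher (8.97%, against 18%), both below the share among all genes listed. NCIH1563 stood apart with 17 higher (21.8%, against 23.3%) and 12 lower (15.4%, against 24.8%) in the authors' deposited table. It was the only line with more of the genes higher than lower.

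In NCIH1975 and NCIH522 the authors' deposited table called none of the 78 genes. Among all genes listed, 4.33% were higher and 3.58% lower in NCIH1975, and 0.912% higher and 0.75% lower in NCIH522. PC9 had 1 gene lower (1.28%, against 1.92%) and none higher (against 2.56%) in the authors' deposited table, MRPL35 at −1. The median standard error of the 78 genes was 0.279 in NCIH1975, 0.225 in NCIH522 and 0.281 in PC9, against 0.0825 to 0.112 in the LUSC lines, and 0.188 in NCIH1563. The lines with 1 call or none were those with the widest errors. The medians of the 78 fold changes were −0.11 in NCIH1975, −0.12 in NCIH522 and −0.15 in PC9, all lower than the −0.03 of LK2.

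**Figure D3:**
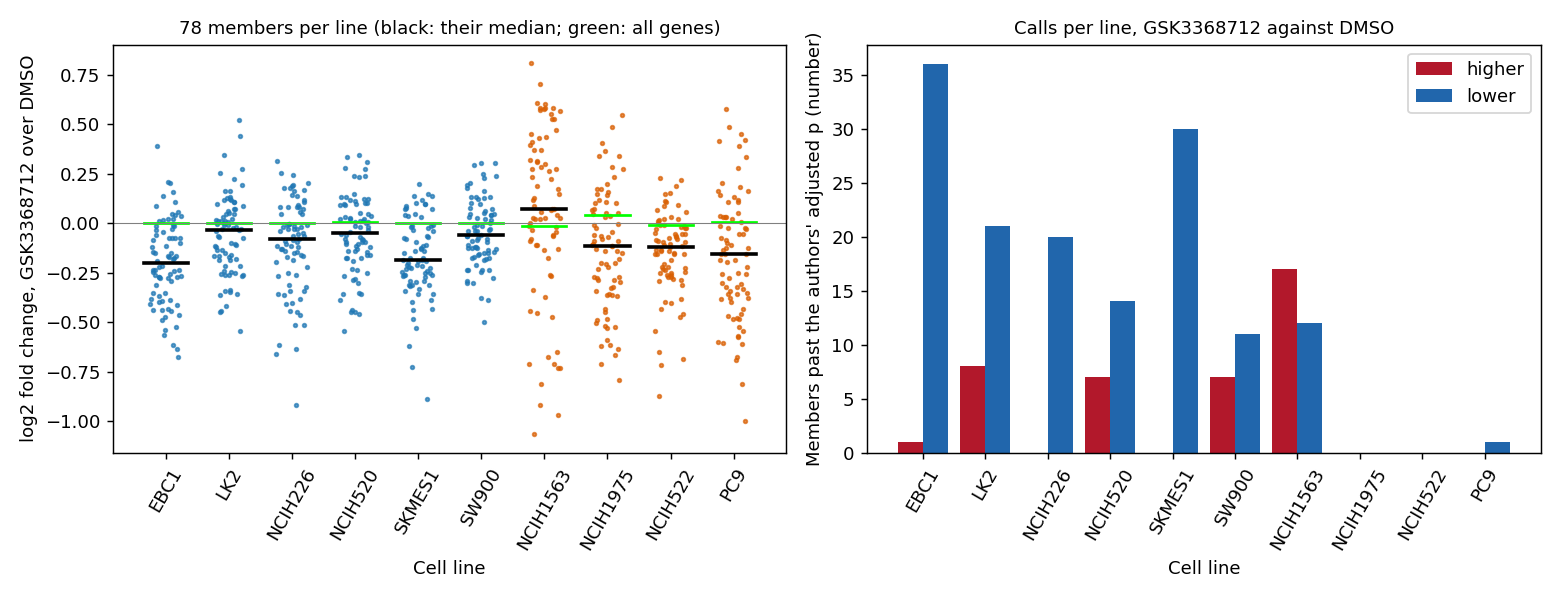
Left, log2 fold change, GSK3368712 over DMSO, of the 78 genes in each line (1 point per gene; blue LUSC, orange LUAD), with the median of the genes in black and of all genes listed in green. Right, how many of the 78 passed the authors' adjusted p in each line, higher in red and lower in blue. The black median lies below the green one in all lines but NCIH1563, where it is 0.07.

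The median over the 78 genes was lowest in EBC1, at −0.20, followed by SKMES1 at −0.19. It was −0.08 in NCIH226, −0.06 in SW900 and −0.05 in NCIH520, and 0.07 in NCIH1563. The median of all genes listed lay between −0.01 and 0.04 in every line. Among the genes called in EBC1, the most negative was MRPL35 at −0.67 and the only positive one MRPL10, a protein at the base of the stalk, at 0.39 in the authors' deposited table. The most negative called value in the authors' deposited table was −0.54 for MRPL14 in LK2, −0.92 for MRPS11 in NCIH226, −0.54 for MRPS11 in NCIH520, −0.89 for MRPS6 in SKMES1 and −0.50 for MRPS16 in SW900. The most positive called value in the authors' deposited table was 0.52 for MRPL57 in LK2, 0.34 for MRPL10 in NCIH520 and 0.30 for MRPS18A in SW900.

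Of the 78 genes, 47 were called lower in at least 1 LUSC line (60.3%, against 48.4% of the genes listed in all lines), and 6 were called lower in all 6 of them (7.69%, against 2.58%). These 6 were MRPL35, MRPL40, MRPL51, MRPS11, MRPS25 and MRPS6. Another 10 of the 78 were called in no line (12.8%, against 11.4%), and 7 were called lower in one line and higher in another (8.97%, against 21.9%). Only 2 of the 780 pairs reached an absolute log2 fold change of 1, MRPL35 in NCIH1563 and in PC9, and of these the authors' own mark was given to MRPL35 in NCIH1563.

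NCIH1563 had the widest range of called values. In this line 14 of the 17 genes called higher encode large subunit proteins and 3 small subunit proteins, while 5 of the 12 called lower encode large and 7 small subunit proteins. Among all 78 genes, 51 encode large and 26 small subunit proteins, and the split by subunit was not tested. The highest in the authors' deposited table were MRPL55 at 0.81 and MRPS2 at 0.70, and the lowest were MRPL35 at −1.06, MRPL15 at −0.97 and MRPS10 at −0.92. MRPL44, which has the fold of a double-stranded RNA nuclease, stood at −0.81 in the authors' deposited table. Of the 17 genes called higher in NCIH1563, 6 were called lower in EBC1 (35.3%, against 21.1% of all genes so called and listed in all lines). Transcripts of the genes called higher in NCIH1563 had a median GC content of 51.8%, those called lower 43.2%. Over the 78 genes, Spearman's correlation of fold change with GC content was 0.35 in NCIH1563, and over all genes listed there it was 0.37. It was 0.28 over the 78 genes and 0.25 over all genes listed in NCIH522, −0.11 and −0.21 in NCIH1975, and −0.32 and −0.17 in PC9. In the LUSC lines it lay between −0.09 and 0.05 over the 78 genes. These correlations are over genes that share libraries, and with the fold changes corrected for GC content and transcript length, 18 of the 78 genes fell across lines (23.1%, against 13.6% of all genes) and 4 rose (5.13%, against 11.1%).

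Whether a gene's fold change differed between the lines was tested with Cochran's Q, which sets the spread over lines against the authors' standard errors. By Q, 26 of the 78 genes differed between lines at a Benjamini-Hochberg adjusted p of at most 0.05 (33.3%), against 65.9% of all genes tested. Without NCIH1563 the count was 15 (19.2%, against 49.1%). The median SD over lines was 0.191 for the 78 genes, against 0.291 for all genes tested, while the median standard errors were closer to each other, 0.110 and 0.122. The largest Q belonged to MRPS10, at 50.6 (9 degrees of freedom, adjusted p = 4.81e-07). In the authors' deposited table MRPS10 ranged from −0.92 in NCIH1563 through a median of −0.13 to 0.34 in PC9, and it was called lower in EBC1, NCIH226, SKMES1 and NCIH1563. MRPS2 (Q = 37.9, adjusted p = 6.3e-05) ranged from −0.43 in PC9 through −0.09 to 0.70 in NCIH1563 in the authors' deposited table. It was called higher in NCIH1563 and lower in EBC1. MRPL57 (Q = 37.3, adjusted p = 8.03e-05) ranged from −0.27 in NCIH1975 through 0.10 to 0.52 in LK2 in the authors' deposited table, and was called higher in LK2 and SW900. MRPL15 (Q = 37.0, adjusted p = 8.78e-05) ranged from −0.97 in NCIH1563 through −0.23 to 0.13 in PC9 in the authors' deposited table.

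Over the 78 genes, Pearson's correlation of the fold changes between 2 lines had a median of 0.572 over the 45 pairs of lines, which share no libraries. The lowest was −0.135, between NCIH1563 and PC9, and the highest 0.764, between SKMES1 and SW900. Without NCIH1563 the pairs lay between 0.438 and 0.764. Over all genes with values in all lines, the pairs lay between −0.197 and 0.614. The 78 genes differ in level, and that is common to both lines of a pair.

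No difference between the LUSC and the LUAD lines was detected in any of the 78 genes by limma's adjusted p, and 0.0107% of all genes tested passed. At an unadjusted p under 0.05 the count was 1 of the 78, MRPL35, and 5.47% of all genes tested. MRPL35 averaged −0.49 in LUSC lines and −0.88 in LUAD lines, a difference of 0.39 with an unadjusted p of 0.015 and a limma adjusted p of 0.789. Simulated data were given the spread over lines of all genes tested. In them this test recovered 6% of log2 differences of 0.5 and 64% of differences of 1. At that spread, differences of the size seen for MRPL35 would mostly be missed.

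The 78 genes together made up 3356 (NCIH226) to 7210 (NCIH522) CPM, here the mean normalized counts scaled to the sum over the genes listed in a line. Each line was normalized on its own, so these levels describe the lines and were not tested. Per kilobase of the longest transcript, the highest median levels over the lines were 111 CPM for MRPL12, 95.4 for MRPS34 and 94.5 for MRPL51. With the length of the principal transcript in place of the longest, an option chosen after the data were seen, MRPS24 at 132 and MRPL33 at 121 came before MRPL12 at 111. The order of the levels thus depends on the transcript taken as the gene's length, and MRPL42, whose longest annotated transcript has 15582 bases, was last by the first measure at 2.54. Over the 78 genes, Spearman's correlation of the mean fold change was 0.12 with the median level, 0.02 with GC content and −0.03 with the length of the longest transcript.

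Of the 24 genes that changed across lines, 5 overlap no other annotated gene, 11 overlap one on the opposite strand only and 8 overlap one on the same strand. Overlap was taken over whole gene bodies, introns included, and shared exons were not asked for. The libraries were strand-specific by kit, and whether the counting used the strand is not given in the sources used here. The 8 are MRPL12, MRPL19, MRPL30, MRPL42, MRPL53, MRPS6, MRPS16 and MRPS35. What share of their reads, if any, belongs to the overlapping genes is uncertain. DNAJC9, which overlaps MRPS16, had a mean of −0.10 ± 0.33 (SD, n = 10 lines, limma adjusted p = 0.503). CCDC142, which overlaps MRPL53, had a mean of 0.11 ± 0.23 (SD, n = 10 lines, limma adjusted p = 0.35). On the opposite strand, ABHD8, which overlaps MRPL34, fell by −0.52 ± 0.39 (SD, n = 10 lines, limma adjusted p = 0.00588). MRPL40 is overlapped by C22orf39, which fell (−0.35 ± 0.24, limma adjusted p = 0.00762), and HIRA, which rose (0.24 ± 0.15, limma adjusted p = 0.0171). The other genes that overlap the 24 and were tested did not pass. The part of these overlaps in the calls was not tested. Pseudogenes of these genes lie elsewhere in the genome, and 4 of them, MRPL20P1, MRPL45P2, MRPS31P4 and MRPS31P5, had values.

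Of the mitochondrial ribosomal proteins with other symbols, 5 had values. GADD45GIP1, a large subunit protein at the exit of the nascent chain, fell with a mean of −0.34 ± 0.32 (SD, n = 10 lines, limma adjusted p = 0.0243). AURKAIP1, a small subunit protein, fell with −0.23 ± 0.20 (SD, n = 10 lines, limma adjusted p = 0.0394). Each was lower in 9 of 10 lines. CHCHD1 had a mean of 0.16, PTCD3 of −0.12 and the GTP-binding DAP3 of −0.03, and none of these 3 passed.

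The shares of all genes tested, 12.1% lower and 9.5% higher, also apply beside the counts of the lists that follow. Of the 29 genes tested for assembly of the mitochondrial ribosome and modification of its RNA, 8 fell and 3 rose, and the median of their means was −0.04. MRM1, which methylates the large mitochondrial ribosomal RNA, fell furthest, with a mean of −1.47 ± 0.31 (SD, n = 10 lines, limma adjusted p = 2.32e-06), and its values in the authors' deposited table ran from −2.06 in NCIH1975 to −1.08. TRMT61B, which methylates mitochondrial RNAs, fell with a mean of −0.69 ± 0.32 (SD, n = 10 lines, limma adjusted p = 0.000387). RBFA, an assembly factor of the small subunit, fell with −0.47 ± 0.18 (SD, n = 10 lines, limma adjusted p = 0.000549). MTG1, an assembly GTPase of the large subunit, fell with −0.44 ± 0.22 (SD, n = 10 lines, limma adjusted p = 0.00149). All 4 were lower in 10 of 10 lines.

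Of the 19 mitochondrial translation factors tested, 4 fell and 1 rose. The initiation factor MTIF3 had a mean of −0.53 ± 0.25 (SD, n = 10 lines, limma adjusted p = 0.00074). TACO1, which activates translation of the message for a cytochrome c oxidase subunit, had −0.39 ± 0.14 (SD, n = 10 lines, limma adjusted p = 0.000882). MTFMT, which formylates the initiator tRNA, had −0.31 ± 0.22 (SD, n = 10 lines, limma adjusted p = 0.0103). METAP1D, a mitochondrial methionine aminopeptidase, rose with 0.45 ± 0.35 (SD, n = 10 lines, limma adjusted p = 0.0079). Of the 20 genes for charging mitochondrial tRNAs, 3 fell and 1 rose. Among them the threonyl-tRNA synthetase TARS2 averaged −0.42 ± 0.08 (SD, n = 10 lines, limma adjusted p = 0.000245). GATB, a subunit of the glutamyl-tRNA amidotransferase, averaged −0.24 ± 0.17 (SD, n = 10 lines, limma adjusted p = 0.0232). The tryptophanyl-tRNA synthetase WARS2 rose, with a mean of 0.25 ± 0.21 (SD, n = 10 lines, limma adjusted p = 0.0297). Of the 17 genes for transcription of mitochondrial DNA and processing of its RNA, 3 fell (KIAA0391, FASTKD1 and TBRG4) and 1 rose (TEFM). Of 7 regulators of mitochondrial biogenesis tested, MYC rose, with a mean of 0.29 ± 0.31 (SD, n = 10 lines, limma adjusted p = 0.0436), and none fell.

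Of 15 listed RNAs encoded by the mitochondrial genome, MT-ND5 rose and none fell. MT-ND5 had a mean of 0.39 ± 0.38 (SD, n = 10 lines, limma adjusted p = 0.022). The median over the 15 ran from −0.274 in PC9 to 0.475 in LK2. The ribosomal RNAs with which the proteins assemble did not pass. MT-RNR1 had a mean of 0.01 ± 0.47 and MT-RNR2 of −0.06 ± 0.67 (SD, n = 10 lines each). The libraries were made with a kit that selects polyadenylated RNA.

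Set beside the 22 lower and 2 higher of the 78 mitochondrial ribosomal protein genes, 25 of 78 nuclear genes for oxidative phosphorylation subunits fell and 1 rose, with a median of the means of −0.11. Of 81 cytosolic ribosomal protein genes, 1 fell and 5 rose, with a median of 0.15. The difference between these lists was not tested. In NCIH1563 the lists lay furthest apart, with medians of 0.07 for the mitochondrial ribosomal protein genes, −0.24 for the oxidative phosphorylation genes and 0.77 for the cytosolic ribosomal protein genes. In each of the other lines the median of the mitochondrial ribosomal protein genes lay below zero, and so did that of the oxidative phosphorylation genes except in SW900, where it was 0.00.

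**Figure D4:**
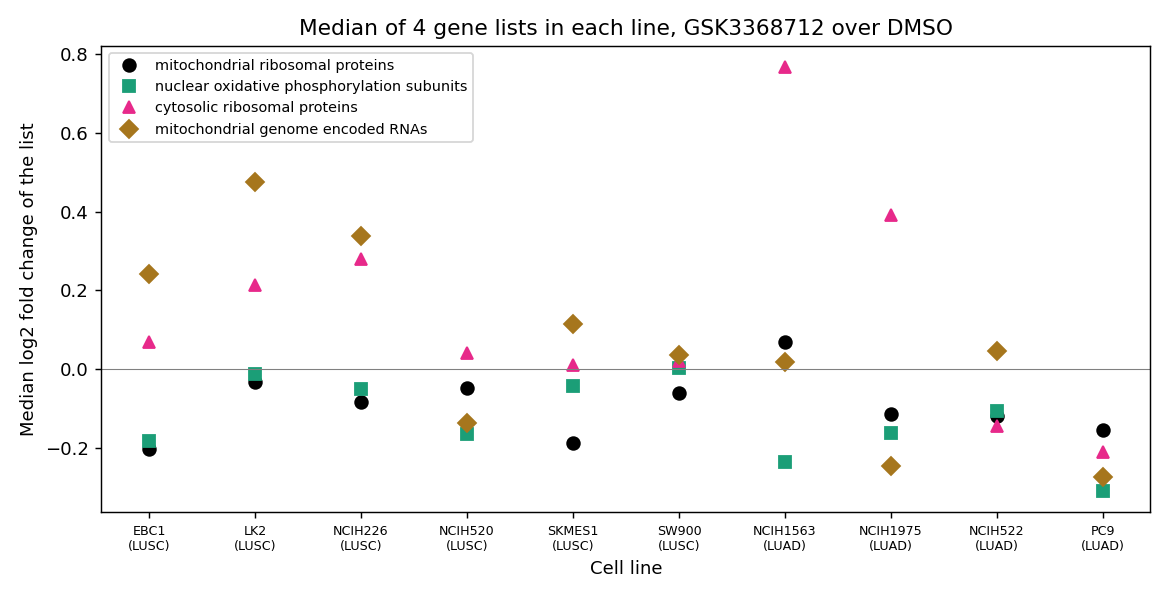
Median log2 fold change, GSK3368712 over DMSO, of 4 gene lists in each of the 10 lines. The lists are mitochondrial ribosomal proteins (78 genes), nuclear oxidative phosphorylation subunits, cytosolic ribosomal proteins and 15 RNAs of the mitochondrial genome. The mitochondrial ribosomal protein genes lie between −0.20 and 0.07, while the cytosolic ribosomal protein genes reach 0.77 in NCIH1563.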

How the data were processed

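All values came from a table of comparisons that the authors deposited, 1 comparison per cell line. Per the labels' protocols, the RNA was taken with a miRNeasy kit and sequenced from TruSeq Stranded mRNA libraries, and genes at an FPKM of at most 1 were left out of each comparison. Per the submitters' processing notes, the tools were FastQC, Salmon 0.12.0 (GRCh38) and DESeq2, whose version is not stated. Fold changes and standard errors are log2 values as deposited. The adjusted p was deposited as a p-value, and the deposited statistic is a score, checked to lie within 0.166 of the ratio of fold change to standard error. Mean normalized counts were deposited as well. Single libraries, and thus their depth, were not analysed here, and counting intervals are left out for that reason.

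From these values, limma 3.58.1 (R 4.3.3) tested each gene's mean over the 10 lines and the LUSC minus LUAD difference, and Cochran's Q used the deposited standard errors. All 3 were fitted and Benjamini-Hochberg adjusted over 9339 genes, and tested on simulated data. The lines are the replicates of these tests. Medians, levels and correlations were described without tests. Positions, GC content and lengths come from GENCODE 29, which held all 78 genes, and promoters from RefSeq. Python 3.11.15 with pandas 2.3.3, scipy 1.17.1 and matplotlib 3.10.9 made the tables and figures.

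The members and lists were chosen with earlier results of these data known. Values over the lines are given for the 12 genes with the smallest p across lines, the 4 largest Q and the extreme called gene in each line. Up to 4 genes with the smallest p are named per other list, and all genes of lists of up to 6. The result of 1 gene that this rule takes is not reported here. Other settings included another adjustment, expression filter, centring, variance model and meta-analysis, correction for GC content and length, and omission of each line.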

Additional observations from a re-analysis of the deposited data

Results flagged for a closer look

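In all, 79 sets of 10 values were checked (78 genes and the median per line). In 18 of them, 1 line lay apart from the other 9 by more than Dixon's 95% limit. The line was NCIH1563 in 14 of the 18. Chance gives about 1 in 20 such sets only if the spread is the same in all lines, and the standard errors here differ. The check covered these genes alone, so no share over all genes stands beside the 18. By Cochran's Q, 65.9% of all genes tested differed between lines, and 49.1% without NCIH1563. There, in the authors' deposited table, the log2 fold change lay above the other lines for MRPL11 (0.58), MRPL17 (0.43), MRPL22 (0.58), MRPL37 (0.23), MRPL43 (0.37), MRPL55 (0.81), MRPL58 (0.47), MRPL9 (0.60), MRPS2 (0.70), MRPS23 (0.32) and MRPS26 (0.37). In the same line it lay below the others for MRPL44 (−0.81), MRPS22 (−0.68) and MRPS30 (−0.71) in the authors' deposited table. The line apart was NCIH1975 for MRPL19 (−0.59) and MRPL32 (0.34), NCIH226 for MRPL40 (−0.66) and NCIH522 for MRPS33 (−0.40) in the authors' deposited table. Of the 14 genes apart in NCIH1563, MRPL37 is the only one that fell across lines, and its mean without NCIH1563 was −0.28. The standard errors in NCIH1563, NCIH1975 and NCIH522 were wider than in the LUSC lines, and their part in these values was not tested.

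The fold changes of 4 genes differed most between lines by Cochran's Q, each past the Benjamini-Hochberg adjusted threshold: MRPS10 (Q = 50.6), MRPS2 (37.9), MRPL57 (37.3) and MRPL15 (37.0).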

How the results depend on the processing

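No paired analysis was possible because the table holds 1 fold change per line and no values per library, so neither a replicate block nor the omission of a library could be run. The 22 lower and 2 higher genes across lines became 34 and 7 with the random-effects meta-analysis, 13 and 1 without NCIH1975, NCIH522 and PC9, and 0 and 0 in the LUAD lines alone, where 4 lines were fitted. With correction for GC content and transcript length, 18 were lower and 4 higher. Leaving out 1 line gave 15 to 26 lower and 1 to 3 higher, and 15 to 29 genes that differed between lines, against 26. Without NCIH1563, 15 of the genes differed between lines (19.2%, against 49.1% of all genes), and with every line 26 (33.3%, against 65.9%). For the other counts with 1 line left out, no share of all genes is given. Whether those counts moved with all genes therefore cannot be told. Of the 24 changed genes, 16 kept the call in all 10 omissions, and no gene past the threshold changed sign under any setting run. The authors' mark, which also asks for an absolute log2 fold change of 1, left 0 genes in EBC1, LK2, NCIH226, NCIH520, SKMES1, SW900 and PC9 and 1 in NCIH1563. This rule was read from the values and matched the mark in 135777 of 135786 entries. MRPL35 in PC9, deposited at −1 with a DESeq2 adjusted p of 0.0141, was not marked. Centring on the median of all genes gave 1 called gene in NCIH1975, against 0. The count of genes that differed between LUSC and LUAD lines was 0 under every setting run. Depth of single libraries is unknown here, and the standard errors of NCIH1975, NCIH522 and PC9 limit what could be called in them.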
